A study of Homo sapiens with 8 samples.

Results

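The 34 genes described here were NFE2L2, which encodes the transcription factor NRF2, its inhibitor KEAP1, its partner MAFG, 26 antioxidant, detoxification, NADPH-forming and export genes reported as NRF2 targets, and 5 aldo-keto reductases. They were found by symbol in the deposited count tables, which list 46427 genes for NCI-H1944 and 61271 for NCI-H647, and all 34 were listed in both. NCI-H1944 and NCI-H647 are established human lung cancer cell lines, each given genotype WT in the labels and grown in RPMI medium with fetal bovine serum. That label alone does not give the KEAP1 or NFE2L2 mutation status of either line. Of the 4 groups of 2 libraries, the first was NCI-H1944 given 100 nM of BAY-1217389 for 48 hours and then kept 24 hours after the drug was washed out. BAY-1217389 inhibits MPS1, the spindle checkpoint kinase encoded by TTK. The second was NCI-H1944 given DMSO on the same schedule, the third NCI-H647 given BAY-1217389, and the fourth NCI-H647 given DMSO. The comparison asks how the NRF2 pathway stood after the washout that followed a pulse of MPS1 inhibition.

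NRF2 is held low by KEAP1, an adaptor that brings it to a CUL3 ubiquitin ligase for degradation. When reactive cysteines of KEAP1 are modified by electrophiles or oxidants, or when KEAP1 or NRF2 is mutated, NRF2 accumulates, pairs with a small MAF protein such as MAFG and binds antioxidant response elements near its target genes. Those targets make and recycle glutathione and thioredoxin, form NADPH, reduce carbonyls and quinones, conjugate foreign compounds and pump the products out of the cell. Aldo-keto reductases use NADPH to reduce aldehydes, ketones and steroids, and several are among the strongest NRF2-responsive genes in human cells. The pathway is often constitutively active in lung cancers.

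The core of an antioxidant response element, TGACNNNGC, was searched on both strands in RefSeq promoter windows (build GRCh38.p14, 250 bases before to 50 bases after each gene's start). Windows were at hand for 25 of the 34 genes, and 10 of the 25 (40.0%) held a match, against 4384 of 27305 genes with a window (16.1%). ABCC1, ABCC3, PRDX1, ALDH3A1, AKR1B10, GSR, CBR3, HMOX1 and SLC7A11 had no window at hand and were not searched. By window the shares were 11 of 33 (33.3%) for these genes and 4687 of 35116 (13.3%) for all. There were 14 matches in the 11 windows, and 1 from each of the 10 genes is printed because NRF2 is known to act through this element. The sequences lie, with the strand that carries the motif in parentheses, as follows in GRCh38.p14. They are GCLM at chr1:93909446-93909474 (+), GPX2 at chr14:64942849-64942877 (+), TXNRD1 at chr12:104286920-104286948 (-), KEAP1 at chr19:10502784-10502812 (+), ME1 at chr6:83431170-83431198 (-), PIR at chrX:15493289-15493317 (+), EPHX1 at chr1:225825266-225825294 (+), CBR1 at chr21:36069855-36069883 (-), IDH1 at chr2:208255196-208255224 (-) and PGD at chr1:10398853-10398881 (-). Each is written 5′ to 3′ on that strand, with the motif in capitals.
GCLM: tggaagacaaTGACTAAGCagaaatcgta
GPX2: atccccaggaTGACTTAGCaaaaacaggt
TXNRD1: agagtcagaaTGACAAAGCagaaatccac
KEAP1: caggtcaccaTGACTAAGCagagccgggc
ME1: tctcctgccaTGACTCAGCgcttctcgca
PIR: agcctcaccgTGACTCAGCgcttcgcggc
EPHX1: tgagattggcTGACTTGGCaggactgtgc
CBR1: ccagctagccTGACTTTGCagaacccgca
IDH1: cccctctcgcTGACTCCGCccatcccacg
PGD: agcacctagaTGACATTGCcccggcgagg

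In ME1 and PIR the match overlaps the AP-1 element TGACTCA, and the other 12 matches held no such overlap. GCLM and KEAP1 carry the same 9 letters, TGACTAAGC. A match is a description of the sequence and not a binding site, and a target's known element may lie outside the window. Most of these genes were chosen as reported NRF2 targets, so their share with a match is not independent evidence.

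The NCI-H1944 libraries held 43661342 and 43067647 counts with the inhibitor and 39332931 and 38904473 with DMSO, and the NCI-H647 libraries 13563037 and 13358514 with the inhibitor and 19550859 and 17243487 with DMSO. Depth therefore moved with treatment, upward in NCI-H1944 and downward in NCI-H647. Thinning all libraries of a line to its lowest total left 5 members called higher and 17 lower in NCI-H1944 and 7 higher and 24 lower in NCI-H647. Without thinning these were 6 and 18 in NCI-H1944, and 7 and 24 in NCI-H647. Over all genes, thinning left 2201 called higher and 1968 lower in NCI-H1944, and 3862 and 3902 in NCI-H647. The epithelial markers KRT8, KRT18 and KRT7 were high in both lines, while EPCAM stayed between 1.90 and 5.15 CPM, KRT19 was at 0 in NCI-H1944 and CDH1 was under 1 CPM in NCI-H647. Summed over 6 epithelial markers, the level was 4790 to 4949 CPM with the inhibitor and 4125 to 4133 CPM with DMSO in NCI-H1944, and 633.7 to 638.7 against 873.9 to 895.3 CPM in NCI-H647. Of the leukocyte markers, CD68, which marks macrophages and other lysosome-rich cells, had 161 and 164 CPM with the inhibitor, against 69.4 and 72.0 CPM with DMSO in NCI-H1944 and 224 and 223 CPM with the inhibitor, against 148 and 148 CPM with DMSO in NCI-H647, while PTPRC was at 0 in NCI-H1944 and had at most 8 counts in any NCI-H647 library. The part of these markers in the results was not tested. In such bulk libraries, fewer cells of a type and less RNA per cell cannot be told apart.

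With DMSO, most of these genes stood at a higher level in NCI-H1944 than in NCI-H647. Levels below are CPM (read counts scaled to library size) after TMM correction within each line. The ratio between lines is the log2 of mean DMSO values with 0.5 CPM added, after TMM correction of all 8 libraries together. It can therefore differ slightly from the ratio of the printed levels. Of the 33 members tested in both lines, 27 had a ratio above 0, so higher in NCI-H1944, and 26 with total-count scaling. UGDH is among the 27 at 0.01, though its printed DMSO levels are slightly lower in NCI-H1944. The members had a median ratio of 1.08, against a median of 0.03 and quartiles of -0.82 and 0.86 over all 12887 shared genes tested. Of all genes 25.0% lie above the upper quartile by construction, and 21 of the 33 members lay there.

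The highest ratio was that of HMOX1, which encodes the haem-degrading enzyme heme oxygenase 1, at 4.69, with 180.1 and 178.8 CPM in NCI-H1944 and 6.82 and 6.65 CPM in NCI-H647. AKR1C2 followed at 4.17, with 4118 and 3991 CPM in NCI-H1944 and 244 and 222 CPM in NCI-H647. OSGIN1, ABCC2, AKR1B1, MAFG, ALDH3A1, ABCC1, SRXN1, ABCC3 and IDH1 had ratios from 3.63 down to 2.07. GPX2, a glutathione peroxidase, had 78.1 and 84.9 CPM in NCI-H1944 and no count in either DMSO library of NCI-H647. Only 3 members lay below the lower quartile. They were GCLC, the catalytic subunit of the rate-limiting step of glutathione synthesis, at -1.90, CBR3 at -1.43 and ME1 at -1.32. PGD, SLC7A11 and TALDO1 were lower in NCI-H1944 by less, at -0.52, -0.44 and -0.13. Line, library kit and counting differ together between the tables and cannot be told apart, so these levels are described and not tested.

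**Figure D1:**
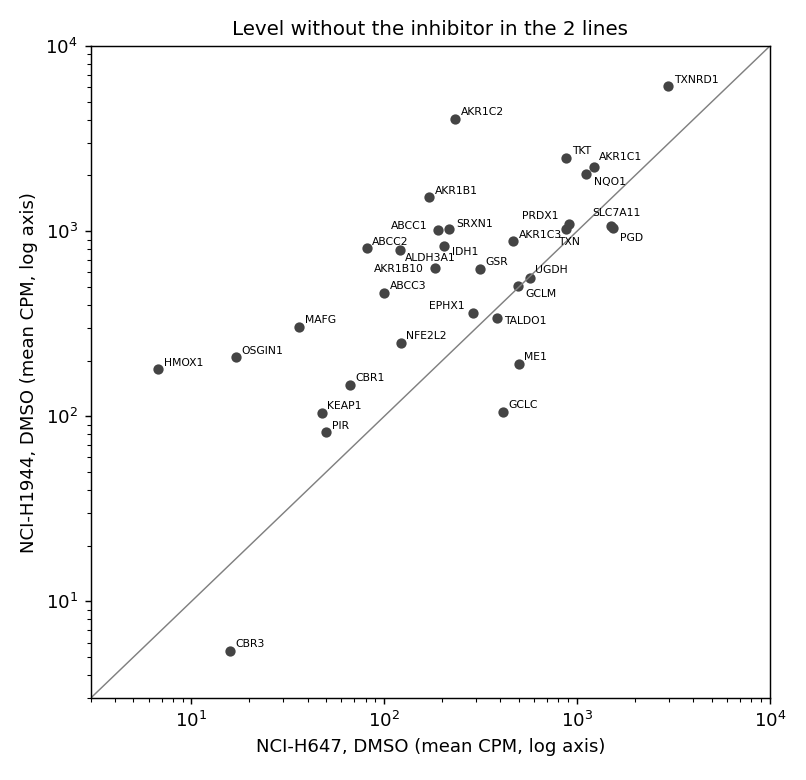
Mean CPM of 33 member genes in the 2 DMSO libraries of NCI-H1944 (vertical, log axis) against the 2 of NCI-H647 (horizontal, log axis), with the line of equality; GPX2, at 0 in NCI-H647, is not drawn. Most points lie above the line, HMOX1 and AKR1C2 farthest, and GCLC, ME1 and CBR3 lie well below it.

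Taken per kilobase of exon, which allows genes to be ranked within a line, the order of levels differed between the lines. TXNRD1 (1198 CPM per kilobase), TXN (1186), AKR1B1 (1080) and AKR1C2 (942) led in NCI-H1944 with DMSO. In NCI-H647 with DMSO the leaders were TXN (1002), PGD (813), PRDX1 (722) and TXNRD1 (588), while AKR1B1 and AKR1C2 ranked 14 and 21 among the 34. TXNRD1 and TXN in NCI-H1944 lie close together, and the lengths are those of all annotated exons. The AKR1C2 ranks carry the same uncertainty as its ratio. The 34 genes together took 3.12% and 3.12% of all counts with the inhibitor and 3.32% and 3.31% with DMSO in NCI-H1944, and 1.30% and 1.29% against 1.61% and 1.59% in NCI-H647.

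With the inhibitor, far more members were lower than higher in both lines, by small amounts in NCI-H1944 and by larger ones in NCI-H647. Tests below are edgeR's quasi-likelihood test in each line, with p-values adjusted by the Benjamini-Hochberg method over all genes and a threshold of 0.05, and changes are log2 fold changes of the inhibitor over DMSO ± the standard error of the fit, with 2 libraries per group. In NCI-H1944, 18 of 34 members were called lower and 6 higher, against 12.4% and 13.6% of the 16738 genes tested. In NCI-H647, 24 of the 33 tested were called lower and 7 higher, against 27.0% and 27.3% of 15049 genes (54.4% in either direction, and 26.0% in NCI-H1944). The member not tested there was GPX2, with no count in 3 libraries and 3 counts in 1 library with the inhibitor. The median change of the members was -0.09 in NCI-H1944 and -0.27 in NCI-H647, where the medians of all genes were 0.001 and 0.005. No member passed 1.5-fold in NCI-H1944, where 1.03% of genes were called lower and 5.10% higher by at least that much. In NCI-H647, 8 members were called lower by at least 1.5-fold and 1 higher, against 8.14% and 11.1% of genes. The labels do not call the replicates separate cultures, and the spread behind the p-values may be technical.

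Both inhibitor libraries lay below both DMSO libraries for 20 of 34 members in NCI-H1944 and 26 of 33 tested in NCI-H647, against 30.5% and 37.9% of genes. They lay above for 8 and 7 members, against 30.5% and 38.4%. Of the 33 members tested in both lines, 16 were called lower in both (9.75% of genes), 3 higher in both (9.47%), 2 higher in NCI-H1944 and lower in NCI-H647 (1.78%), and 1 the reverse (1.33%). Across the 33 members, the changes in the lines had a Pearson correlation of 0.57 (Spearman 0.47), beside 0.42 (0.44) across all 12887 genes. Genes are not independent replicates, and this is a description.

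**Figure D2:**
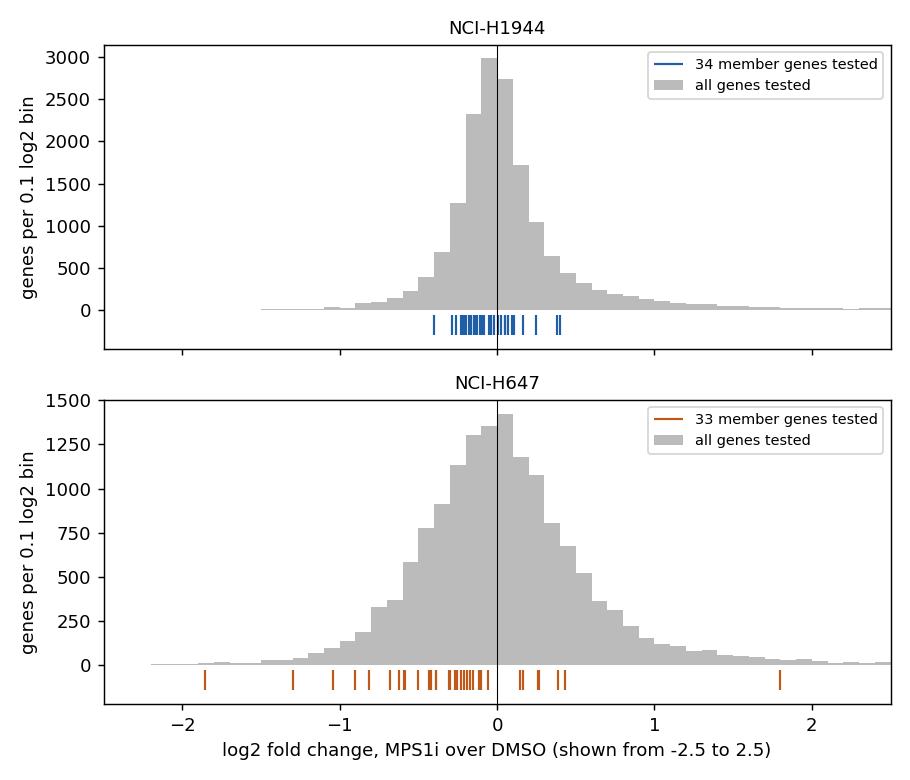
Histograms of the log2 fold change (inhibitor over DMSO, bins of 0.1) of all genes tested in NCI-H1944 (top) and NCI-H647 (bottom), with a tick below for each of the 34 and 33 member genes tested. In NCI-H1944 the ticks lie within the body of the histogram, between -0.40 and 0.40, and in NCI-H647 most lie left of 0, out to -1.86, with 1 far to the right at 1.79.

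Of the 3 regulators, NFE2L2 mRNA was higher with the inhibitor in NCI-H647, and KEAP1 was lower in NCI-H1944. NFE2L2 had 167 and 161 CPM with the inhibitor, against 118 and 125 CPM with DMSO in NCI-H647. The groups did not overlap, and the change was 0.43 ± 0.05, adjusted p = 1.36e-06. It had 262 and 261 CPM with the inhibitor, against 251 and 247 CPM with DMSO in NCI-H1944, a change of 0.07 ± 0.03 that did not pass (adjusted p = 0.112). KEAP1 had 92.6 and 93.6 CPM with the inhibitor, against 103 and 106 CPM with DMSO in NCI-H1944 (-0.17 ± 0.04, adjusted p = 0.00392). Both inhibitor libraries were below both controls, but without the second DMSO library adjusted p was 0.0506. In NCI-H647 the KEAP1 libraries held 44.6 and 46.6 CPM with the inhibitor, against 46.8 and 48.2 CPM with DMSO, and the change of -0.06 ± 0.05 did not pass (adjusted p = 0.369). MAFG had 46.2 and 41.0 CPM with the inhibitor, against 36.5 and 36.1 CPM with DMSO in NCI-H647, with the first inhibitor library the highest (0.26 ± 0.06, adjusted p = 0.00192). Without that library its adjusted p was 0.0586, and with DESeq2 0.055. In NCI-H1944 MAFG had 276 and 295 CPM with the inhibitor, against 301 and 306 CPM with DMSO, a change of -0.09 ± 0.03 that missed the threshold (adjusted p = 0.066) and passed it with the replicate number as a block (adjusted p = 0.0226), with total-count scaling (0.0359) and without the second inhibitor library (0.00865).

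The 5 glutathione genes were called lower or not called. SLC7A11, the cystine importer that supplies cysteine for glutathione, had 992 and 989 CPM with the inhibitor, against 1479.8 and 1505 CPM with DMSO in NCI-H647 (-0.59 ± 0.03, adjusted p = 1.24e-10). It was also lower in NCI-H1944, with 930.4 and 879 CPM with the inhibitor, against 1070.2 and 1048 CPM with DMSO (-0.23 ± 0.03, adjusted p = 7.07e-06), and the groups did not overlap in either line. GCLC had 215 and 227 CPM with the inhibitor, against 406 and 421 CPM with DMSO in NCI-H647, a 1.87-fold decrease (-0.90 ± 0.04, adjusted p = 4.01e-11). Its NCI-H1944 libraries held 99.6 and 99.2 CPM with the inhibitor, against 107 and 105 CPM with DMSO, a change of -0.09 ± 0.04 that did not pass (adjusted p = 0.081). GCLM, the modifier subunit that makes GCLC more efficient, had 323 and 319 CPM with the inhibitor, against 495 and 496 CPM with DMSO in NCI-H647 (-0.63 ± 0.03, adjusted p = 4.21e-10). In NCI-H1944 it had 468 and 463 CPM with the inhibitor, against 510.1 and 496 CPM with DMSO (-0.11 ± 0.03, adjusted p = 0.00597), and without the first DMSO library adjusted p was 0.0874. The match in GCLM printed above lies just before its start.

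GSR, glutathione reductase, which uses NADPH to return oxidised glutathione to its reduced form, was lower in both lines. It had 533 and 537 CPM with the inhibitor, against 625 and 624 CPM with DMSO in NCI-H1944 (-0.22 ± 0.02, adjusted p = 4.02e-06) and 265 and 259.8 CPM with the inhibitor, against 313 and 314 CPM with DMSO in NCI-H647 (-0.26 ± 0.04, adjusted p = 1.85e-05). GPX2 had 86.0 and 83.1 CPM with the inhibitor, against 78.1 and 84.9 CPM with DMSO in NCI-H1944, where the groups overlapped (0.05 ± 0.05, adjusted p = 0.455). In all, 3 of 5 were called lower in NCI-H1944 and 4 of 4 tested in NCI-H647. None was called higher by edgeR in either line, nor at an unadjusted p under 0.05 or by DESeq2. Over all genes, edgeR called 12.4% lower and 13.6% higher in NCI-H1944, and 27.0% and 27.3% in NCI-H647.

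The 4 thioredoxin genes were all lower in NCI-H647, where 27.0% of all genes were called lower, and split in NCI-H1944. TXN, thioredoxin itself, had 764 and 784 CPM with the inhibitor, against 895 and 846 CPM with DMSO in NCI-H647 (-0.17 ± 0.03, adjusted p = 0.000481). In NCI-H1944 it had 1069 and 1024 CPM with the inhibitor, against 1024 and 1036 CPM with DMSO, with overlapping groups (0.02 ± 0.02, adjusted p = 0.559). TXNRD1, the NADPH-dependent reductase of thioredoxin, had 2616 and 2569 CPM with the inhibitor, against 2931 and 3000.1 CPM with DMSO in NCI-H647 (-0.19 ± 0.03, adjusted p = 2.15e-05). Its 5919.7 and 5838 CPM with the inhibitor, against 6068 and 6017 CPM with DMSO in NCI-H1944 made a change of -0.04 ± 0.01 that passed narrowly (adjusted p = 0.0342). That call was lost without either DMSO library (adjusted p = 0.229 and 0.0778), without the second inhibitor library (0.0782) and with DESeq2 (0.0925). PRDX1, a peroxiredoxin that reduces peroxides with thioredoxin, was higher in NCI-H1944, with 1176 and 1176 CPM with the inhibitor, against 1105 and 1073 CPM with DMSO (0.11 ± 0.02, adjusted p = 0.00129). It was lower in NCI-H647, with 784 and 762 CPM with the inhibitor, against 923 and 885 CPM with DMSO (-0.23 ± 0.03, adjusted p = 2.30e-05), so the lines moved in opposite directions without overlap of their groups. SRXN1, which repairs over-oxidised peroxiredoxins, was lower in both, at -0.13 ± 0.02 in NCI-H1944 (adjusted p = 0.000291) and -0.15 ± 0.04 in NCI-H647 (adjusted p = 0.00445).

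All 5 genes that form NADPH or belong to the pentose phosphate pathway were called lower in both lines, with no overlap of groups. Over all genes, 12.4% were called lower in NCI-H1944 and 27.0% in NCI-H647. Both inhibitor libraries lay below both DMSO libraries for 30.5% and 37.9% of genes. TKT, transketolase, which interconverts sugar phosphates in that pathway, had 514 and 484 CPM with the inhibitor, against 876 and 882 CPM with DMSO in NCI-H647 (-0.82 ± 0.03, adjusted p = 2.52e-11). In NCI-H1944 TKT had 1987 and 2086 CPM with the inhibitor, against 2477 and 2484 CPM with DMSO (-0.28 ± 0.02, adjusted p = 2.74e-08). PGD, 6-phosphogluconate dehydrogenase, which forms NADPH, had 1141 and 1134 CPM with the inhibitor, against 1556 and 1509.5 CPM with DMSO in NCI-H647 (-0.43 ± 0.03, adjusted p = 6.76e-09) and 892 and 895 CPM with the inhibitor, against 1030.4 and 1037 CPM with DMSO in NCI-H1944 (-0.21 ± 0.02, adjusted p = 1.69e-06). ME1, the cytosolic malic enzyme, also forms NADPH. It had 379 and 384 CPM with the inhibitor, against 502 and 495 CPM with DMSO in NCI-H647 (-0.39 ± 0.03, adjusted p = 9.09e-08) and 167 and 167 CPM with the inhibitor, against 191 and 193 CPM with DMSO in NCI-H1944 (-0.20 ± 0.03, adjusted p = 0.000315). TALDO1, transaldolase, changed by -0.12 ± 0.03 in NCI-H1944 and -0.21 ± 0.04 in NCI-H647, and IDH1, the cytosolic isocitrate dehydrogenase, by -0.22 ± 0.02 and -0.27 ± 0.04. Adjusted p was 0.00584 and 0.000181 for TALDO1 and 3.10e-06 and 5.79e-05 for IDH1. Without the second DMSO library the NCI-H1944 call of TALDO1 was lost (adjusted p = 0.0672).

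**Figure D3:**
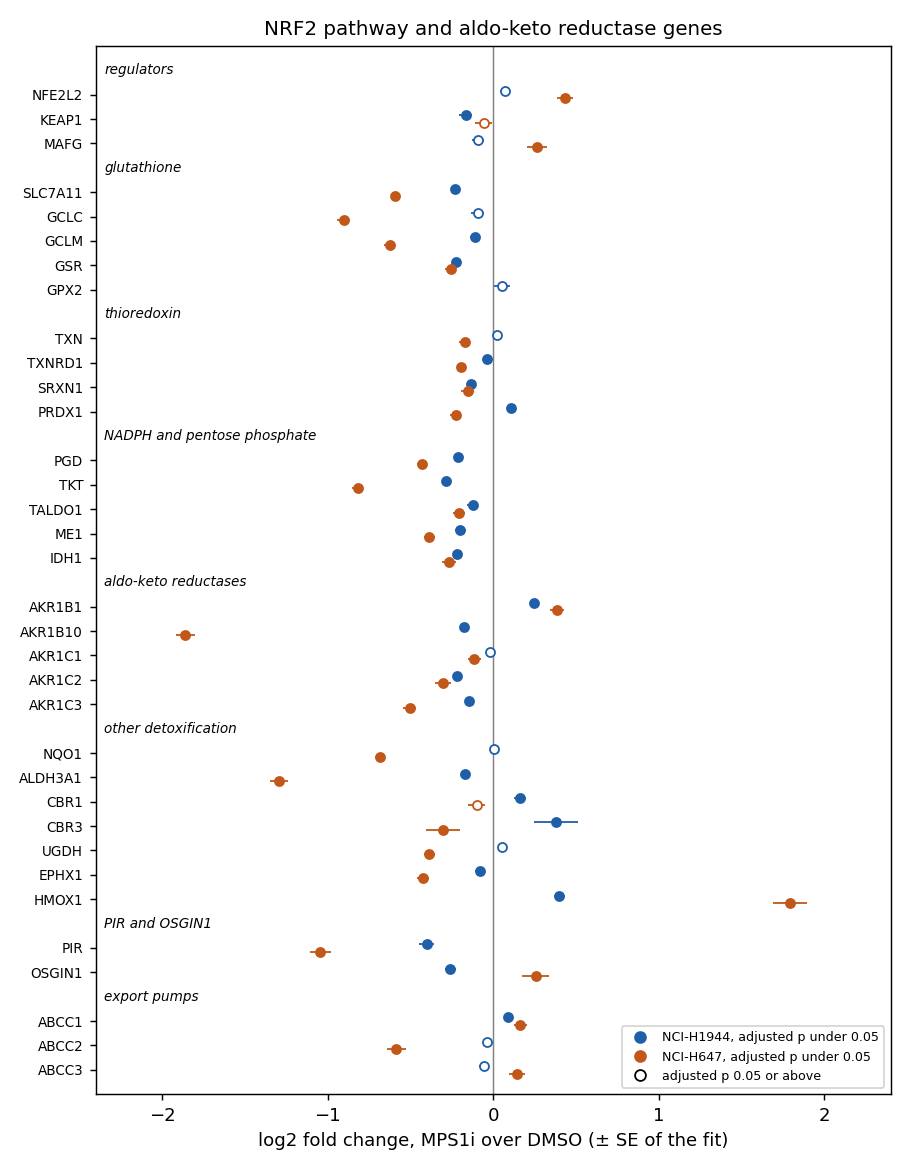
Log2 fold change (inhibitor over DMSO, points) with the standard error of the fit (bars) of each member gene by role, for NCI-H1944 (blue) and NCI-H647 (orange), where filled points passed an adjusted p of 0.05. NCI-H647 points spread from -1.86 (AKR1B10) to 1.79 (HMOX1), and NCI-H1944 points from -0.40 (PIR) to 0.40 (HMOX1).

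Of the 5 aldo-keto reductases, AKR1B1 was higher in both lines, and the others were lower or not called. AKR1B10, which reduces retinal and other aldehydes, had 50.7 and 50.2 CPM with the inhibitor, against 191 and 175 CPM with DMSO in NCI-H647. Every inhibitor library was far below every control, a 3.63-fold decrease (-1.86 ± 0.06, adjusted p = 6.22e-13). The NCI-H1944 libraries held 558 and 558 CPM with the inhibitor, against 633 and 629 CPM with DMSO, a small decrease with no overlap (-0.18 ± 0.02, adjusted p = 4.50e-05). AKR1B1, aldose reductase, lies beside AKR1B10 on chromosome 7. It had 229.8 and 218 CPM with the inhibitor, against 173 and 170.2 CPM with DMSO in NCI-H647 (0.38 ± 0.04, adjusted p = 1.66e-06) and 1771 and 1842 CPM with the inhibitor, against 1538 and 1506 CPM with DMSO in NCI-H1944 (0.25 ± 0.02, adjusted p = 2.47e-07), and the groups did not overlap. The coding regions of AKR1B1 and AKR1B10 are 75.2% identical and share no run of 50 bases, so that reads of that length within them can be told apart.

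AKR1C1, AKR1C2 and AKR1C3 reduce steroids and prostaglandins and lie together on chromosome 10. AKR1C2 had 3472 and 3497 CPM with the inhibitor, against 4118 and 3991 CPM with DMSO in NCI-H1944 (-0.22 ± 0.02, adjusted p = 3.83e-08) and 185 and 193 CPM with the inhibitor, against 244 and 222 CPM with DMSO in NCI-H647 (-0.30 ± 0.05, adjusted p = 7.82e-05). AKR1C3 had 800.4 and 791 CPM with the inhibitor, against 881 and 879.5 CPM with DMSO in NCI-H1944 (-0.15 ± 0.02, adjusted p = 0.000134) and 321 and 339 CPM with the inhibitor, against 483 and 452 CPM with DMSO in NCI-H647 (-0.50 ± 0.04, adjusted p = 5.23e-08). Both were lower with no overlap. AKR1C1 had 2196 and 2168 CPM with the inhibitor, against 2229.5 and 2190.5 CPM with DMSO in NCI-H1944, where the groups overlapped (-0.02 ± 0.02, adjusted p = 0.5). In NCI-H647 it had 1108 and 1144 CPM with the inhibitor, against 1278 and 1159 CPM with DMSO (-0.11 ± 0.04, adjusted p = 0.0215). That call rested on the first DMSO library, without which adjusted p was 0.377, and it was also lost without the first inhibitor library (0.11), with total-count scaling (0.16) and with DESeq2 (0.0527).

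These 3 genes are near copies, which the first 60 bases of their coding regions show. In GRCh38 they lie at chr10:4963445-4963504 (+ strand) for AKR1C1, chr10:5003776-5003835 (- strand) for AKR1C2 and chr10:5094445-5094504 (+ strand) for AKR1C3. Capitals mark bases that differ from AKR1C1.
AKR1C1: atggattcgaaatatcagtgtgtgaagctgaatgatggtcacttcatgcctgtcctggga
AKR1C2: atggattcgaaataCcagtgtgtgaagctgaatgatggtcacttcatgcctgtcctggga
AKR1C3: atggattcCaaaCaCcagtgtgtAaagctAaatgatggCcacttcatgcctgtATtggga

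AKR1C2 differs from AKR1C1 at 1 of these 60 bases and AKR1C3 at 8. Over the 969 coding bases, AKR1C1 and AKR1C2 differ at 19 (98.0% identity), and 51.6% of runs of 50 bases and 18.9% of runs of 100 bases occur in both. AKR1C1 and AKR1C3 are 91.4% identical, and AKR1C2 and AKR1C3 91.0%. How the counting treated reads that match more than 1 copy is not given in the sources used here, so the separate values of AKR1C1 and AKR1C2 are uncertain. Counted as 1 feature, the 3 genes changed by -0.14 ± 0.01 in NCI-H1944 (adjusted p = 4.07e-07) and -0.22 ± 0.04 in NCI-H647 (adjusted p = 0.000128). The 5 aldo-keto reductases together took 0.878% and 0.88% of counts with the inhibitor and 0.942% and 0.926% with DMSO in NCI-H1944, and 0.193% and 0.197% against 0.233% and 0.214% in NCI-H647.

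The 7 other detoxification genes held the widest range of changes. NQO1, a quinone reductase often used as a readout of NRF2 activity, had 699 and 692 CPM with the inhibitor, against 1119.8 and 1113 CPM with DMSO in NCI-H647, a 1.61-fold decrease (-0.68 ± 0.03, adjusted p = 3.31e-11). Its NCI-H1944 libraries held 2047 and 2017 CPM with the inhibitor, against 2022 and 2022 CPM with DMSO. Those groups overlapped, the change was 0.01 ± 0.02 (adjusted p = 0.823), and its sign turned with total-count scaling. ALDH3A1, an aldehyde dehydrogenase, had 47.5 and 50.6 CPM with the inhibitor, against 119 and 122 CPM with DMSO in NCI-H647, a 2.45-fold decrease (-1.29 ± 0.05, adjusted p = 3.13e-11). Its NCI-H1944 values were 684 and 720.4 CPM with the inhibitor, against 775 and 802 CPM with DMSO (-0.17 ± 0.03, adjusted p = 0.000293), again with no overlap. EPHX1, microsomal epoxide hydrolase, had 214 and 215 CPM with the inhibitor, against 286 and 289 CPM with DMSO in NCI-H647 (-0.42 ± 0.04, adjusted p = 1.34e-07). Its NCI-H1944 values were 339.9 and 346 CPM with the inhibitor, against 362 and 363 CPM with DMSO (-0.08 ± 0.03, adjusted p = 0.0488), a call lost in 8 of 13 alternatives and without any 1 of the 4 libraries (adjusted p from 0.0544 to 0.2). UGDH, which makes the sugar donor for glucuronidation, had 435 and 438 CPM with the inhibitor, against 569 and 571 CPM with DMSO in NCI-H647 (-0.39 ± 0.03, adjusted p = 6.63e-08), and 579.9 and 571 CPM with the inhibitor, against 558 and 552 CPM with DMSO in NCI-H1944, where it did not pass (0.05 ± 0.03, adjusted p = 0.145).

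HMOX1 was the member with the largest increase in both lines. It had 24.3 and 22.5 CPM with the inhibitor, against 6.82 and 6.65 CPM with DMSO in NCI-H647, a 3.47-fold increase (1.79 ± 0.10, adjusted p = 1.42e-09). In NCI-H1944 it had 231 and 242 CPM with the inhibitor, against 180.1 and 179 CPM with DMSO (0.40 ± 0.03, adjusted p = 2.11e-07), and all inhibitor libraries lay above all controls. HMOX1 is induced by NRF2 but is also held down by the repressor BACH1 and raised by other stress pathways. The carbonyl reductases CBR1 and CBR3, which reduce quinones and drugs, are 77.0% identical in their coding regions and share no run of 50 bases. CBR1 had 165 and 167 CPM with the inhibitor, against 145 and 151 CPM with DMSO in NCI-H1944 (0.16 ± 0.04, adjusted p = 0.00317), and without the first DMSO library adjusted p was 0.0668. In NCI-H647 it had 62.6 and 60.9 CPM with the inhibitor, against 65.7 and 66.7 CPM with DMSO, which did not pass (-0.10 ± 0.05, adjusted p = 0.114). CBR3, the lowest member per kilobase in NCI-H1944, had 7.05 and 7.03 CPM with the inhibitor, against 5.86 and 4.95 CPM with DMSO there (0.38 ± 0.13, adjusted p = 0.0452). That call was lost in 8 of 13 alternatives, including without the second DMSO library (change 0.26, adjusted p = 0.274), without either inhibitor library (0.147 and 0.123) and with DESeq2 (0.197). In NCI-H647 CBR3 had 12.5 and 13.3 CPM with the inhibitor, against 14.9 and 17.0 CPM with DMSO (-0.30 ± 0.10, adjusted p = 0.0219), lost without the second DMSO library (0.148), without the first inhibitor library (0.102) and with DESeq2 (0.183).

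**Figure D4:**
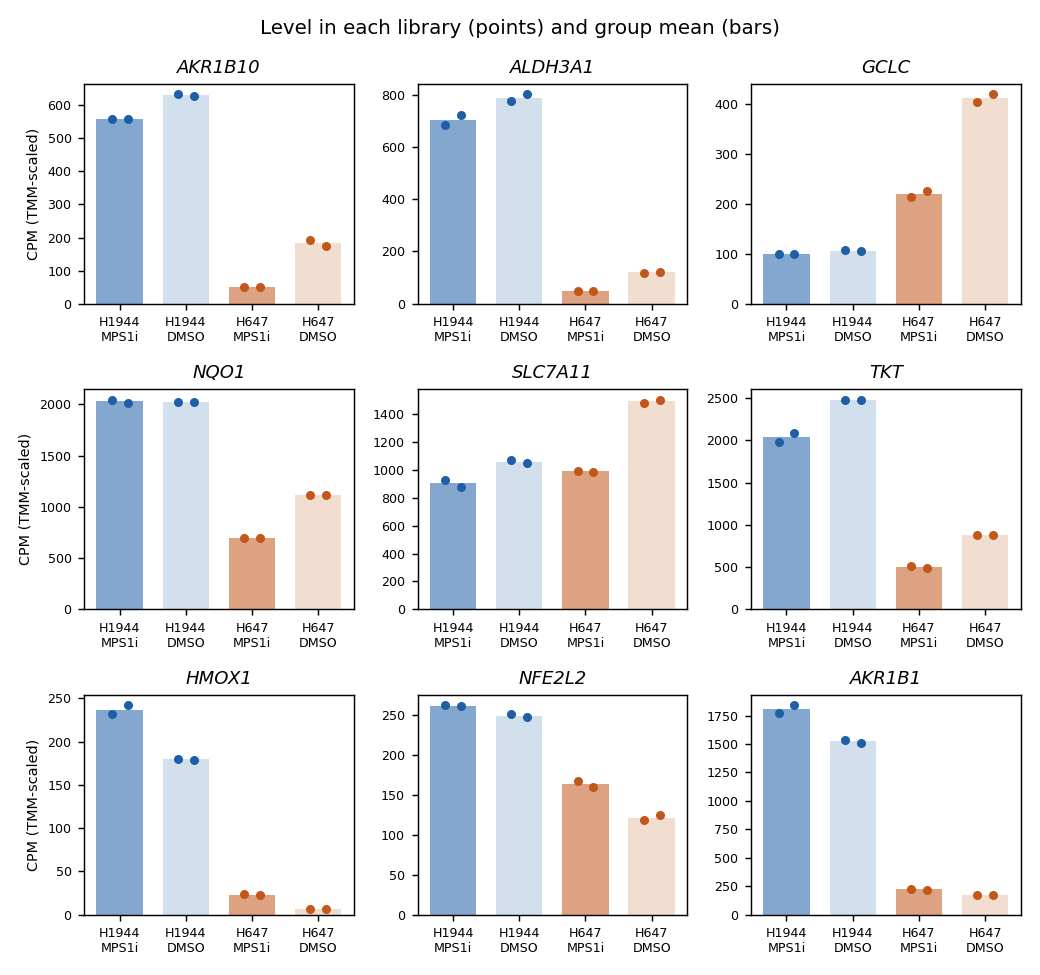
TMM-scaled CPM of 9 member genes in each library (points) with group means (bars), for the inhibitor and DMSO groups of NCI-H1944 (blue) and NCI-H647 (orange). AKR1B10, ALDH3A1, GCLC, NQO1, SLC7A11 and TKT were lower with the inhibitor in NCI-H647, HMOX1, NFE2L2 and AKR1B1 were higher, and the 2 libraries of a group lie close together.

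PIR, pirin, an iron-binding nuclear protein whose gene is a known NRF2 target, was lower in both lines and had the largest decrease of all members in NCI-H1944. It had 63.7 and 60.2 CPM with the inhibitor, against 81.8 and 81.9 CPM with DMSO in NCI-H1944 (-0.40 ± 0.04, adjusted p = 3.70e-06) and 24.3 and 24.2 CPM with the inhibitor, against 52.3 and 47.5 CPM with DMSO in NCI-H647, a 2.06-fold decrease there (-1.04 ± 0.06, adjusted p = 2.87e-09). No libraries of the groups overlapped. OSGIN1, an oxidative stress-induced growth inhibitor, moved in opposite directions. It had 173 and 175 CPM with the inhibitor, against 205 and 211 CPM with DMSO in NCI-H1944 (-0.26 ± 0.03, adjusted p = 2.53e-05) and 20.1 and 20.4 CPM with the inhibitor, against 17.1 and 16.8 CPM with DMSO in NCI-H647 (0.26 ± 0.08, adjusted p = 0.0145). The NCI-H647 increase is on a low level and was lost without the second DMSO library (adjusted p = 0.0523), without either inhibitor library (0.053 and 0.0712) and with DESeq2 (0.202).

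The 3 export pumps carry glutathione and glucuronide conjugates out of the cell. ABCC1 was higher in both lines, with 1058 and 1094 CPM with the inhibitor, against 1012 and 1007 CPM with DMSO in NCI-H1944 (0.09 ± 0.02, adjusted p = 0.00681) and 212 and 214 CPM with the inhibitor, against 194 and 186 CPM with DMSO in NCI-H647 (0.16 ± 0.04, adjusted p = 0.00298). ABCC2 had 52.0 and 56.0 CPM with the inhibitor, against 82.5 and 79.4 CPM with DMSO in NCI-H647, lower with no overlap (-0.58 ± 0.06, adjusted p = 3.60e-07). In NCI-H1944 it had 796 and 781 CPM with the inhibitor, against 830.1 and 788 CPM with DMSO, with overlapping groups (-0.04 ± 0.03, adjusted p = 0.36). ABCC3 had 111 and 110.0 CPM with the inhibitor, against 101 and 99.6 CPM with DMSO in NCI-H647 (0.14 ± 0.05, adjusted p = 0.0184), a call lost without either inhibitor library (adjusted p = 0.105 and 0.0771) and with DESeq2 (0.117). Its NCI-H1944 libraries held 436 and 459 CPM with the inhibitor, against 455 and 473 CPM with DMSO and overlapped (-0.05 ± 0.03, adjusted p = 0.24).

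The difference between the lines was tested as an interaction in a joint edgeR fit of all 8 libraries, with positive values where the change in NCI-H1944 was above that in NCI-H647. Line, library kit, counting and depth differ together here too, and their parts in a difference cannot be told apart. Of 33 members, 19 were called positive and 6 negative, against 20.3% and 19.3% of 12887 genes (39.6% in either direction). By at least 1.5-fold, 6 were positive and 1 negative, against 6.15% and 6.38% of genes. The median difference of the members was 0.19, beside 0.01 over all genes. With total-count scaling, the genes called split into 2086 positive and 3028 negative in place of 2619 and 2484, and the members into 18 and 7. The largest positive differences were AKR1B10 (1.68 ± 0.06, adjusted p = 6.06e-16), ALDH3A1 (1.12 ± 0.06, adjusted p = 9.07e-13), GCLC (0.80 ± 0.05, adjusted p = 7.58e-12), NQO1 (0.69 ± 0.04, adjusted p = 2.42e-11), CBR3 (0.68 ± 0.17, adjusted p = 0.00307) and PIR (0.64 ± 0.09, adjusted p = 6.04e-06). For each, the change was negative in NCI-H647, and in NCI-H1944 it was less negative, near 0 (NQO1) or positive (CBR3). The negative ones were HMOX1 (-1.40 ± 0.10, adjusted p = 1.08e-10), OSGIN1 (-0.52 ± 0.08, adjusted p = 1.83e-05), NFE2L2 (-0.37 ± 0.05, adjusted p = 2.28e-06), MAFG (-0.36 ± 0.07, adjusted p = 0.000437), ABCC3 (-0.20 ± 0.05, adjusted p = 0.00435) and AKR1B1 (-0.14 ± 0.05, adjusted p = 0.0301).

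Not called different were GSR (0.03 ± 0.04, adjusted p = 0.622), IDH1 (0.05 ± 0.05, adjusted p = 0.453), SRXN1 (0.02 ± 0.05, adjusted p = 0.826), TALDO1 (0.08 ± 0.05, adjusted p = 0.18), KEAP1, ABCC1, AKR1C1 and AKR1C2. A p above the threshold does not show that the lines changed alike. The AKR1B1 difference was lost without either DMSO library or the first inhibitor library of NCI-H1944 and without the second DMSO or first inhibitor library of NCI-H647 (adjusted p from 0.0521 to 0.164). That of TXNRD1 (0.15 ± 0.05, adjusted p = 0.0187) was lost without either DMSO or the first inhibitor library of NCI-H1944 (0.0716 to 0.0841), with the replicate number as a block (0.0638) and with total-count scaling (0.137). Without the second DMSO library of NCI-H647, AKR1C1 (0.00418) and AKR1C2 (0.0191) were called positive.

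Of 14 other genes that regulate NRF2, 7 were called higher and 1 lower in NCI-H647 (median 0.17), and 4 higher and 1 lower in NCI-H1944 (median 0.09). Over all genes the shares called were 27.3% higher and 27.0% lower in NCI-H647 and 13.6% and 12.4% in NCI-H1944. With no low-count filter, 2 of the 14 were called higher in NCI-H1944. The small MAF genes MAFF and MAFK, which pair with NRF2 and with its competitor BACH1, had the largest changes of these in NCI-H647. MAFF had 59.1 and 64.0 CPM with the inhibitor, against 16.4 and 17.0 CPM with DMSO (1.89 ± 0.06, adjusted p = 2.18e-12), and MAFK 62.1 and 58.1 CPM with the inhibitor, against 16.9 and 17.4 CPM with DMSO (1.81 ± 0.06, adjusted p = 2.47e-12). In NCI-H1944 MAFF had 63.3 and 68.8 CPM with the inhibitor, against 47.7 and 45.2 CPM with DMSO (0.51 ± 0.05, adjusted p = 2.01e-06). BACH1 itself, named after its values were seen, averaged 235 CPM with the inhibitor, against 164 CPM with DMSO in NCI-H647 (0.52 ± 0.04, adjusted p = 4.43e-08). NFE2L1, a relative of NRF2, changed by 0.58 ± 0.03 in NCI-H647 (adjusted p = 1.14e-09), and SQSTM1, which sequesters KEAP1, by 0.44 ± 0.03 there and 0.11 ± 0.02 in NCI-H1944 (adjusted p = 6.30e-09 and 0.000337). NFE2L3, another relative, averaged 13.5 CPM with the inhibitor, against 5.16 CPM with DMSO in NCI-H1944 (1.38 ± 0.11, adjusted p = 1.04e-07), and CUL3, the scaffold of the KEAP1 ligase, was lower there (-0.26 ± 0.04, adjusted p = 0.00021).

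Of 25 further reported NRF2 targets, 12 were called lower and 0 higher by edgeR in NCI-H1944 (median -0.10), with 0 higher also at an unadjusted p under 0.05 and by DESeq2. One was called higher without the second DMSO library and 1 in the fit of all 8 libraries. In NCI-H647, 16 were lower and 4 higher (median -0.22). The shares over all genes were 12.4% lower and 13.6% higher in NCI-H1944, and 27.0% and 27.3% in NCI-H647. FECH, the last enzyme of haem synthesis, averaged 28.2 CPM with the inhibitor, against 53.5 CPM with DMSO in NCI-H647 (-0.92 ± 0.05, adjusted p = 1.99e-09), and it changed by -0.42 ± 0.05 in NCI-H1944 (adjusted p = 3.02e-06). TRIM16L changed by -0.83 ± 0.04 in NCI-H647 and -0.24 ± 0.03 in NCI-H1944, and TRIM16 by -0.25 ± 0.03 in NCI-H1944. Their reads may be shared, since TRIM16L is a near copy of part of TRIM16. The ferritin chains parted in NCI-H647. The heavy chain FTH1 averaged 7224 CPM with the inhibitor, against 4253 CPM with DMSO (0.76 ± 0.03, adjusted p = 3.03e-12), and the light chain FTL 3204 CPM with the inhibitor, against 4403 CPM with DMSO (-0.46 ± 0.03, adjusted p = 2.14e-09). In NCI-H1944 both chains were lower, FTH1 by -0.07 ± 0.01 (adjusted p = 0.000533) and FTL by -0.10 ± 0.01 (adjusted p = 4.27e-05).

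Of 16 other enzymes of NADPH formation and the pentose phosphate pathway, all 15 tested were called lower in NCI-H647 (median -0.47), with 0 higher by edgeR, at an unadjusted p under 0.05 or by DESeq2. In NCI-H1944, 8 of 16 were called lower and 1 higher (median -0.12), with 5 lower when no low-count filter was used and 0 higher with DESeq2. Over all genes, 27.0% were called lower in NCI-H647, and 12.4% lower and 13.6% higher in NCI-H1944. H6PD, the hexose-6-phosphate dehydrogenase of the endoplasmic reticulum, averaged 114 CPM with the inhibitor, against 204 CPM with DMSO in NCI-H647 (-0.84 ± 0.04, adjusted p = 3.00e-10), and 102 CPM with the inhibitor, against 127 CPM with DMSO in NCI-H1944 (-0.31 ± 0.04, adjusted p = 2.04e-05). MTHFD1 of folate metabolism (-0.75 ± 0.04, adjusted p = 1.41e-09) and the mitochondrial transhydrogenase NNT (-0.73 ± 0.05, adjusted p = 2.29e-08) were also lower in NCI-H647. IDH2 averaged 18.7 CPM with the inhibitor, against 26.4 CPM with DMSO in NCI-H1944 (-0.50 ± 0.08, adjusted p = 0.000113). In the difference between the lines, 9 of the 15 were called positive and 0 negative by edgeR, as also by DESeq2. Over all 12887 genes, edgeR called 20.3% positive and 19.3% negative. At an unadjusted p under 0.05, 0 of the 15 were negative as well.

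Of 23 other glutathione and thioredoxin enzymes, 8 were called higher and 9 lower in NCI-H647 (median -0.07), and 2 higher and 6 lower of the 22 tested in NCI-H1944 (median -0.07). Over all genes, 27.3% were called higher and 27.0% lower in NCI-H647, and 13.6% and 12.4% in NCI-H1944. Without the first DMSO library of NCI-H1944, 3 were called lower there. Only 1 was called higher there without the second DMSO library, without the second inhibitor library, with total-count or upper-quartile scaling, with no low-count filter, or with DESeq2. SOD2, mitochondrial superoxide dismutase, which is also induced by inflammatory signalling, had 1741 and 1683 CPM with the inhibitor, against 438 and 449 CPM with DMSO in NCI-H647 (1.95 ± 0.03, adjusted p = 8.07e-16) and 814 and 792 CPM with the inhibitor, against 485 and 476 CPM with DMSO in NCI-H1944 (0.74 ± 0.03, adjusted p = 1.22e-12). SLC3A2, the chain that pairs with SLC7A11, averaged 301 CPM with the inhibitor, against 228 CPM with DMSO in NCI-H647 (0.40 ± 0.04, adjusted p = 2.42e-07), where SLC7A11 itself was lower, and 1449 CPM with the inhibitor, against 1582 CPM with DMSO in NCI-H1944 (-0.13 ± 0.02, adjusted p = 0.000294). GSS, glutathione synthetase, was lower in NCI-H647 (-0.68 ± 0.05, adjusted p = 5.46e-08). Among 8 other aldo-keto reductases, 1 of 4 tested was called higher and 2 lower in NCI-H647, and 3 of 5 tested lower in NCI-H1944, where 0 were called higher by edgeR, at an unadjusted p under 0.05 or by DESeq2. The NCI-H647 counts became 0 higher and 1 lower with DESeq2, and 1 was lower in NCI-H1944 without the second DMSO library or with no low-count filter. AKR7A2 was the lower one by most, with 15.6 CPM with the inhibitor, against 26.1 CPM with DMSO in NCI-H647 (-0.74 ± 0.08, adjusted p = 1.91e-06) and a change of -0.29 ± 0.07 in NCI-H1944 (adjusted p = 0.00636). AKR1B15, which shares 19.8% of AKR1B10's runs of 50 coding bases, averaged 11.2 CPM with the inhibitor, against 7.96 CPM with DMSO in NCI-H647 (0.49 ± 0.12, adjusted p = 0.00321; this call was lost with DESeq2) and 43.9 CPM with the inhibitor, against 50.9 CPM with DMSO in NCI-H1944 (-0.21 ± 0.05, adjusted p = 0.00785).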

How the data were processed

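The authors deposited raw whole-number read counts for each gene, with a separate table for each line. The submitters' processing notes list STAR, HISAT2, featureCounts, StringTie, cutadapt, Trim Galore and Trimmomatic, and build GRCh38. Versions, the strand setting and the tool behind each table were not given in the sources used here, so reads of overlapping or antisense genes cannot be told apart. Per the labels' protocols, a stranded mRNA kit served for NCI-H1944, and ribosomal RNA depletion with conversion for an MGI sequencer for NCI-H647. Genes kept by edgeR's filterByExpr (version 4.0.16, R 4.3.3, minimum count 10, minimum total 15) were scaled by TMM and tested within each line. The difference was tested in a joint fit of the genes that passed in both (32128 symbols were shared). A repeated symbol was taken at its highest total. Standard errors are the log2 fold change over the square root of F. The fits were tested on simulated counts. DESeq2 1.42.0 was an alternative. All 34 members are accounted for. Values in every library are given for regulators, NQO1, HMOX1, aldo-keto reductases and members called with a change of at least 0.3 or called different between lines. Up to 4 genes of each further list with the smallest adjusted p in a line were eligible as examples. Members and lists were chosen with earlier results of these data known. One marker gene is not reported here. Exon lengths and coding regions came from GENCODE, promoters from RefSeq.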

Additional observations from a re-analysis of the deposited data

Results flagged for a closer look

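A difference in response between the lines, by the interaction test, marked 25 of 33 members tested, against 39.6% of 12887 genes. Line, library kit, counting and depth cannot be told apart in it. Values are the log2 fold change in NCI-H1944 minus that in NCI-H647. Below 0 stood HMOX1 (-1.40), OSGIN1 (-0.52), NFE2L2 (-0.37), MAFG (-0.36), ABCC3 (-0.20) and AKR1B1 (-0.14). Each of these changed more upward in NCI-H647 than in NCI-H1944. Above 0 stood AKR1B10 (1.68), ALDH3A1 (1.12), GCLC (0.80), NQO1 (0.69), CBR3 (0.68), PIR (0.64), ABCC2 (0.54), TKT (0.53), GCLM (0.51), UGDH (0.43), SLC7A11 (0.36), AKR1C3 (0.35), EPHX1 (0.34), PRDX1 (0.33), CBR1 (0.26), PGD (0.22), TXN (0.19), ME1 (0.18) and TXNRD1 (0.15). Of the 25, PRDX1 and CBR3 were called higher in NCI-H1944 and lower in NCI-H647, and OSGIN1 the reverse. HMOX1 and AKR1B1 were called higher in both lines, by more in NCI-H647. PIR, AKR1B10, ALDH3A1, TKT, GCLM, SLC7A11, AKR1C3, EPHX1, PGD, ME1 and TXNRD1 were called lower in both, by more in NCI-H647.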

How the results depend on the processing

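Of the 24 members called in NCI-H1944, 16 kept their call under every alternative tried, as did 26 of 31 in NCI-H647 and 23 of 25 in the difference between the lines, where TXNRD1 and AKR1B1 did not. Leaving out 1 library at a time gave, in NCI-H1944, 1688 to 2050 genes higher and 1609 to 1682 lower, with 5 members higher throughout and 14 to 17 lower. The ranges in NCI-H647 were 3314 to 3677 genes higher, 3576 to 3718 lower, 4 to 7 members higher and 22 to 24 lower. For the difference they were 2175 to 2548 genes positive, 1996 to 2403 negative, 18 to 21 members positive and 5 to 6 negative. A lone library left in a group is assumed to vary like the others. With no low-count filter, 1319 genes were higher and 1006 lower in NCI-H1944, and the calls of GCLM, TXNRD1, TALDO1, ABCC1, CBR3 and EPHX1 there (4 members higher and 14 lower) and of OSGIN1, ABCC3 and AKR1C1 in NCI-H647 were lost. With DESeq2, 2666 genes and 4 members were higher in NCI-H647, MAFG, OSGIN1 and ABCC3 being lost. The cause was not tested. Signs turned, with no call in either setting, for NQO1 in NCI-H1944 (-0.0047 with total counts, -0.0016 with upper-quartile factors, -0.0070 to 0.021 without 1 library), GPX2 (-0.0084 to 0.113 without 1 library) and TXN (-0.012 to 0.056 without 1 library). In the difference they turned for SRXN1 (-0.040 with total counts, -0.0067 to 0.041 without 1 library), IDH1 (-0.0089 with total counts) and GSR (-0.027 with total counts). Same-numbered libraries had deviations correlated at 0.0849 in NCI-H1944 and -0.327 in NCI-H647, over 2 pairs each, so the numbers are not shown to pair the libraries. With the replicate number as a block, 2490 genes were higher and 2327 lower in NCI-H1944 (members 6 and 19), 4236 and 4198 in NCI-H647 (7 and 24), and 2622 positive and 2473 negative in the difference (18 and 6). Crossed numbers as the block, an alternative chosen after seeing the data, as was thinning, gave 4086 and 4032 genes in NCI-H647. Totals in NCI-H647 were lower, so low genes are less precise there.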
